A study of Mus musculus with 6 samples.

Results

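The replication-dependent histone genes are the 70 genes of the mouse annotation whose symbol begins with Hist1h, Hist2h, Hist3h or Hist4h, out of 22228 genes examined, and their membership was decided by symbol, not by any measured value. Of them, 67 are annotated as protein-coding and 3 as pseudogenes (Hist1h2aj, Hist2h3c2 and Hist3h2bb-ps). Reads of chromatin immunoprecipitation followed by sequencing (ChIP-seq) were counted over each gene with 500 bp on each side. The 6 libraries fell into 3 groups of 2: a rabbit polyclonal antibody to Sox6, a mouse monoclonal antibody to the repeats at the end of RNA polymerase II (Pol II) and input DNA. All 6 came from wild type C57BL/6 myotubes made from E18.5 fetal primary myoblasts at passage 17 and differentiated for 48 h in medium with 2% serum, so no second genotype, treatment or age was compared. A larger share of cells with Pol II at a gene and more Pol II per cell cannot be told apart in such bulk libraries, and although the study describes 2 independent ChIP-seq experiments, no source used here says whether they began from separate cultures, so p-values measure only the spread between these libraries. Sox6 is a transcription factor that the study examined as a repressor of slow fiber genes, and Pol II is the enzyme that transcribes protein-coding genes, histone genes included.

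Histones package DNA: pairs of H2A, H2B, H3 and H4 form the nucleosome core, and H1 binds the linker DNA between nucleosomes. Replication-dependent histone genes supply histones mainly while a cell copies its DNA, lie in clusters, and give mRNAs that end in a conserved stem-loop instead of a poly(A) tail. Myotubes are fused muscle cells that have left the cell cycle, and replacement histones such as H3.3 come from other genes that are transcribed throughout the cell cycle.

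The genes lay on 4 chromosomes of NCBI Build 37 (mm9), with 56 on chromosome 13, 10 on chromosome 3, 3 on chromosome 11 and 1, Hist4h4, on chromosome 6. By class there were 6 H1, 20 H2A, 19 H2B, 12 H3 and 13 H4 genes. Most were very short, with a median annotated length of 427 bp for H4, 519.5 bp for H2A, 524 bp for H2B, 625 bp for H3 and 828.5 bp for H1, while 3 H2B gene models ran past 4000 bp and the longest, Hist1h2be, reached 37383 bp. H2A and H2B genes often stand head to head, and the windows of 47 of the 70 genes overlapped the window of another, so that such neighbors shared reads.

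The stem-loop is shown because it is the sequence that sets these genes apart from other protein-coding genes. It was found within 150 bases after a stop codon in 61 of the 67 coding members (91.0%) and, by the same search, in 12 of 4650 other protein-coding genes of the same chromosomes (0.258%). Its first base lay between 22 and 59 bases after the stop codon, with a median of 31. There were 6 forms of 16 bases, given as DNA from Build 37 with the 4 bases of the loop in capitals and the pairing stem in lower case. The forms are named by how many members carried them and by one carrier.
Form of 39 members, such as Hist2h2aa1 (chr3:96049955-96049970, plus strand): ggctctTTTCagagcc
Form of 9 members, such as Hist2h2ab (chr3:96024256-96024271, plus strand): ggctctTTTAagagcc
Form of 8 members, such as Hist1h4c (chr13:23789958-23789973, minus strand): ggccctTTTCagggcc
Form of 2 members, such as Hist2h4 (chr3:96066862-96066877, minus strand): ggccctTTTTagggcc
Form of 2 members, such as Hist1h4j (chr13:21827306-21827321, plus strand): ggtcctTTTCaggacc
Form of 1 member, Hist2h2ac (chr3:96024341-96024356, minus strand): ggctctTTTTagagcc
The search found no such letters after the stop codon of Hist2h2be, Hist2h2bb, Hist1h2an, Hist1h3g, Hist1h4a and Hist1h2al. Pol II was called above input, by the test described below, at 40 of the 55 tested genes with a stem-loop and at 3 of the 6 without one, beside 39.5% of all genes.

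Coding sequences of the histone genes are so alike that reads from them cannot always be placed. A stretch of 39 bases, the read length of 5 of the 6 libraries, occurred once in the genome at a median of 52.0% of positions in the gene bodies and 76.8% in the windows, and the 500 bp upstream were wholly unique at 31 of the 70 genes. The class medians over gene bodies were 96.1% for H1, 58.7% for H4, 51.0% for H2B, 42.6% for H3 and 42.6% for H2A. Reads at positions that occur more than once were nearly lacking, at 0 to 2 forward reads in each library. In 6 neighboring genes of chromosome 13 (Hist1h2bq, Hist1h2ao, Hist1h4m, Hist1h4n, Hist1h2ap and Hist1h2br), 0 to 7.83% of window positions were unique. These 6 had fewer than 10 reads in each of the comparisons and were not tested, which left 64 genes.

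The libraries held 1538757 and 2762155 reads for Pol II, 2985437 and 1468604 for Sox6, and 21973495 and 24249850 for input. The Pol II libraries carried the myotube program: all 8 myotube markers were called above input in limma, among them Myh3 (embryonic myosin heavy chain) at a log2 ratio of 6.57 and Acta1 (skeletal actin) at 6.32. Of 6 fibroblast markers, 0 were called higher and 5 lower in limma (also 0 higher at an unadjusted p under 0.05, with voom weights and in the exact binomial test), with Col1a1 at 0.04 and Col1a2 at -1.02 (0.22 and not called within 500 bp of its gene start). Of 8 markers of liver, blood, nerve and pancreas cells, 1 was called higher and 5 lower. Their 2 largest ratios were 0.68 at Gfap and -0.62 at Hbb-b1. Hbb-b1 had 0 Pol II reads in both replicates, against 5 and 13 input reads, and was not called. The Pol II side of its ratio therefore came only from the reads added to each count, as described below, and its rank shows no Pol II there. The summed levels of each marker list in the 2 Pol II libraries were 303 and 328 RPKM (reads per kb of window per 1000000 library reads) for myotubes, 1.53 and 1.24 for fibroblasts, and 2.49 and 3.16 for other cells. In input they were 5.60 and 5.86, 3.06 and 2.90, and 4.10 and 4.11.

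The Pol II libraries were compared with input at each gene. Pol II reads were above input at 45 of the 64 tested histone genes and below it at none, in limma on log2 of reads per 1000000 library reads, with 0.5 reads added to each count and the Benjamini-Hochberg adjustment over 21289 genes (call at an adjusted p under 0.05). Over all genes, 39.5% were called higher and 23.0% lower. A call of lower had little room at the members. Their median window held 22.5 and 24 reads in the input libraries, which were far deeper than those of Pol II. Even Hist1h2aa, with 1 and 0 Pol II reads against 10 and 21 input reads, was not called lower. The count of 0 lower is therefore weak evidence, and the share of short genes called lower is not given here. The median log2 ratio was 1.69 over the histone genes and 0.17 over all genes tested. The 0.5 reads weigh more in the shallower Pol II libraries. They raise the ratio where Pol II reads are few and fewer than input reads. At an unadjusted p under 0.05, 47 members were higher and again 0 lower, and limma with voom weights called 47 higher and 0 lower. Among all genes of at most 4000 bp, a length that 67 members share, 24.3% of 4337 were called higher and the median log2 ratio was 0.01. In RPKM, with no reads added, both Pol II replicates lay above the input of the same number at 55 of the 64 members. The share of all genes is not given here for this count, for voom weights or for the unadjusted p.

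Other tests and comparators gave other counts. An exact binomial test (two-sided) that had to pass in each replicate called 25 of the 64 members higher and none lower, against 32.6% of all genes higher. With the Sox6 libraries in place of input, 24 of 55 members were called higher, against 37.4% of all genes. When the libraries were scaled to 10 kb bins outside genes and peaks, the median of all genes rose from 0.17 to 1.67 and that of the members from 1.69 to 3.18, since this scaling adds 1 constant to every ratio, and 60 members and 63.2% of all genes were called higher.

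**Figure D1:**
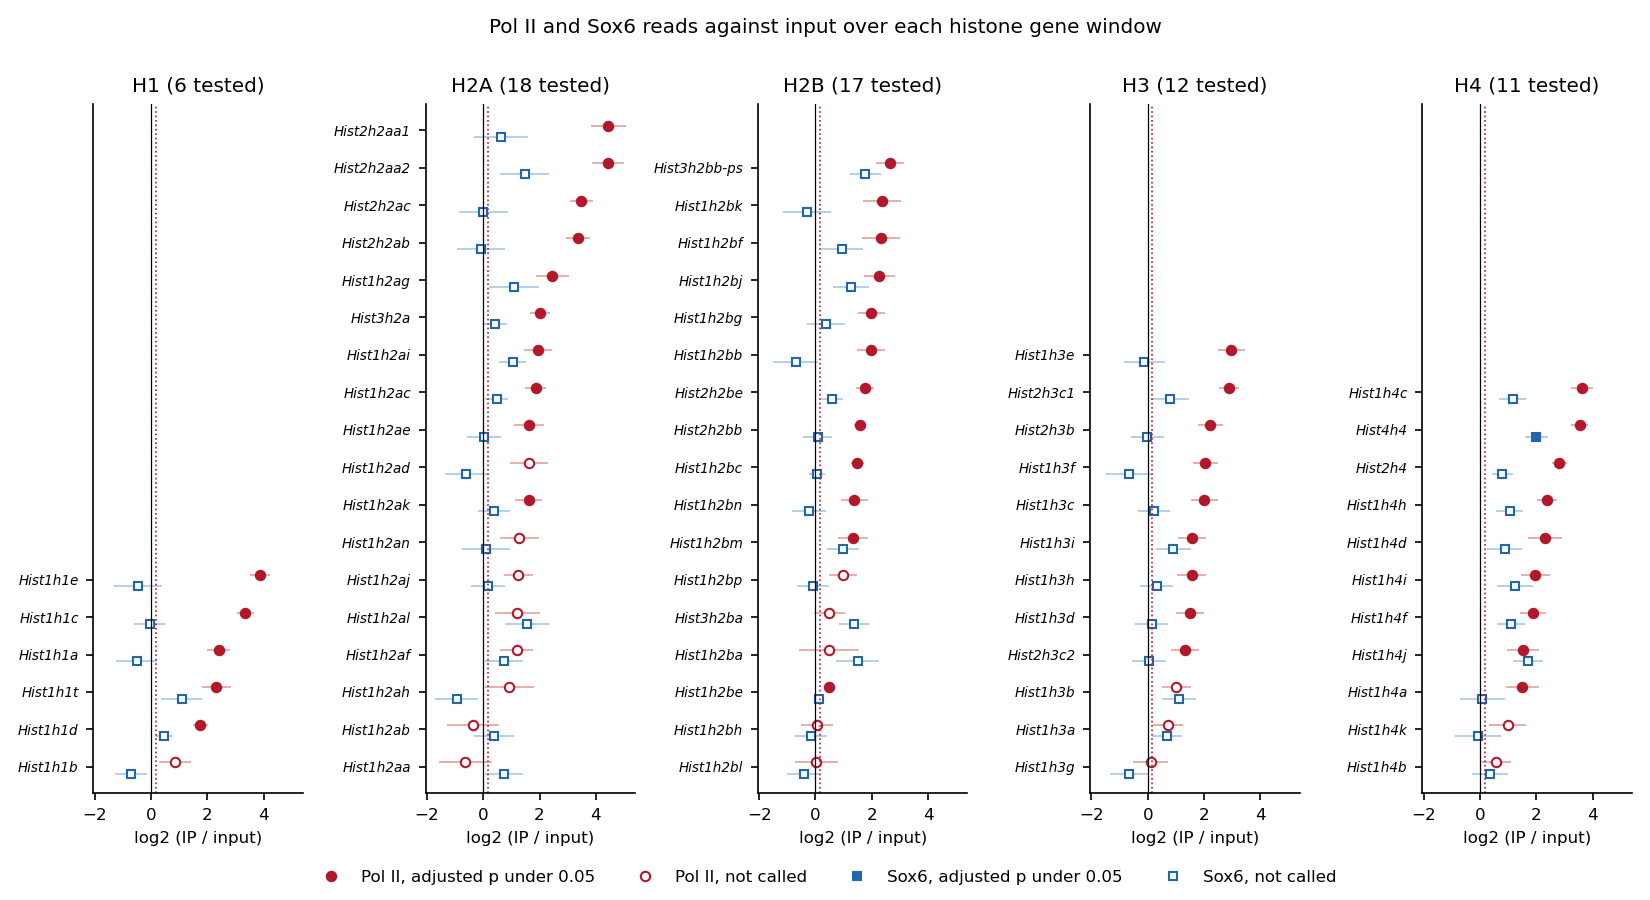
Log2 ratio of Pol II (circles) and Sox6 (squares) reads to input reads over each tested histone gene with 500 bp on each side, by class; bars are the standard error from limma (2 libraries against 2), filled symbols mark an adjusted p under 0.05, and the dotted line is the Pol II median of all genes (0.17). Filled circles fill most of each column, with 45 of 64 in all, while the only filled square is Hist4h4.

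Pol II read density, in RPKM, was highest just before the start codon. Averaged over the 67 coding members, the 100 bp just before the start codon held 7.18 and 6.70 RPKM in the Pol II replicates, 1.45 and 0.91 in the Sox6 replicates and 0.66 and 0.75 in input. In the bin from 1000 to 900 bp before the start codon, the Pol II values were 0.78 and 1.03 and the input values 0.73 and 0.79. Between 100 and 300 bp into the coding part input fell to 0.07 RPKM in replicate 1 and to between 0.13 and 0.18 in replicate 2. Pol II held 1.45 to 2.52 there, so that relative to input it stood higher than before the start codon. Reads of Input replicate 1 were 36 bases long and those of the other libraries 39. The part of read length and of uniqueness in this fall of input, and in the class ratios below, was not tested. Beyond it, from 500 to 600 bp, Pol II stood at 2.91 and 2.76 RPKM and input at 0.71 and 0.82. The ratio to input was not ordered alike in all classes. In H1, H3 and H4 genes, 3 of the 5 classes, the gene stood above the 500 bp upstream in both replicates: the log2 ratios were 4.16 and 3.27 against 2.08 and 2.52 for H4, 2.80 and 2.27 against 1.50 and 1.44 for H3, and 2.66 and 2.88 against 1.46 and 2.24 for H1. In H2A and H2B genes it stood below, at 2.13 and 1.71 against 2.84 and 2.44 for H2A, and at 0.74 and 0.83 against 2.75 and 2.33 for H2B, whose 3 long gene models hold much of its length. Within 500 bp of the annotated gene start, 49 of 62 members were called higher (median 2.31), against 46.4% of all genes (median 1.37).

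**Figure D2:**
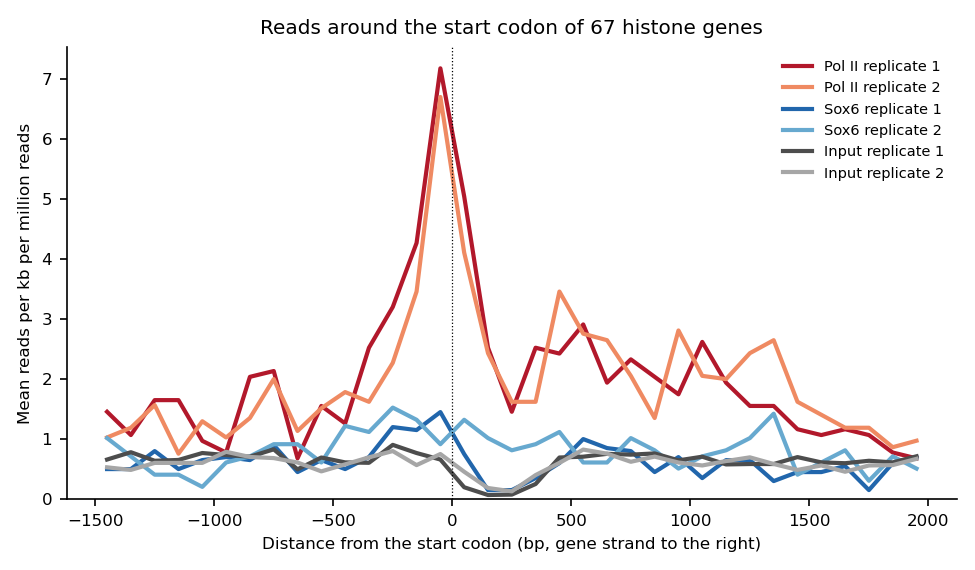
Mean RPKM (vertical axis) in bins of 100 bp by distance from the start codon (horizontal axis, transcription to the right) for the 67 coding histone genes, one line for each of the 6 libraries. Both Pol II lines rise to 7.18 and 6.70 just before the start codon, and all Sox6 and input lines stay at or below 1.52.

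The linker histone H1 genes spanned a wide range. Hist1h1e (chr13:23713624-23714371), which encodes H1.4, had 25 and 49 Pol II reads (9.29 and 10.1 RPKM), 6 and 0 Sox6 reads and 20 and 36 input reads (0.521 and 0.849 RPKM). Its log2 ratio was 3.86 ± 0.35 (SE; limma adjusted p = 2.6e-06). Its window overlaps that of Hist1h2be, whose long gene model had a ratio of 0.47 but which stood at 3.64 within 500 bp of its gene start (limma adjusted p = 1.3e-23). Within 500 bp of its own gene start Hist1h1e had 7 and 17 Pol II reads and a ratio of 3.33. The part of the shared sequence in its value was not tested. Hist1h1c, which encodes H1.2, had 27 and 48 Pol II reads (6.85 and 6.79 RPKM) against 40 and 39 input reads (0.711 and 0.628 RPKM), a log2 ratio of 3.35 ± 0.29 (adjusted p = 1.6e-06). At both genes each Pol II library lay far above each input library. The testis form Hist1h1t was also called, with 4 and 16 Pol II reads against 16 and 22 input reads (2.32 ± 0.53, adjusted p = 0.0026), as were Hist1h1a (2.40) and Hist1h1d (1.75), but Hist1h1t was not called against the Sox6 libraries (1.24, adjusted p = 0.15). The lowest was Hist1h1b, the gene of H1.5, with 2 and 12 Pol II reads (0.746 and 2.49 RPKM) against 30 and 39 input reads (0.783 and 0.923 RPKM). In RPKM its Pol II libraries fell on either side of input (log2 ratio 0.85 ± 0.56, adjusted p = 0.21), but it was called within 500 bp of the gene start (1.94, adjusted p = 0.0020) and in the gene without its flanks (2.23, adjusted p = 0.011). Without Pol II replicate 1 the ratio of Hist1h1b was 1.59, and without Pol II replicate 2 it was 0.11.

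Among the H2A genes, 10 of 18 tested were called higher (median log2 ratio 1.62), and the 4 largest ratios belonged to the chromosome 3 cluster. Hist2h2aa1 and Hist2h2aa2 are near-identical copies, with 20.7% and 23.4% of window positions unique, so reads could be placed in only a small part of each. Hist2h2aa1 had 11 and 12 Pol II reads against 8 and 4 input reads (4.44 ± 0.62, adjusted p = 7.8e-05). Hist2h2aa2 had 8 and 15 against 5 and 6 (4.43 ± 0.56, adjusted p = 3.7e-05). The neighbors Hist2h2ac and Hist2h2ab share most of their windows. Hist2h2ac had 13 and 24 Pol II reads (5.56 and 5.72 RPKM) against 15 and 21 in input (0.449 and 0.570 RPKM), a log2 ratio of 3.48 ± 0.42 (adjusted p = 2.3e-05). Hist2h2ab had 11 and 27 (5.13 and 7.02 RPKM) against 20 and 18 (0.653 and 0.533 RPKM), a ratio of 3.35 ± 0.42 (adjusted p = 3.3e-05). The lowest value of all members belonged to Hist1h2aa, a testis H2A. It had 1 and 0 Pol II reads against 10 and 21 in input (-0.63 ± 0.93, adjusted p = 0.58), and 98.1% of its window was unique. A count of 0 in Pol II replicate 2 allows up to 0.781 RPKM there (3 reads, counting error only), above the 0.327 and 0.623 RPKM of input. Without Pol II replicate 1 it was called lower (-1.85, adjusted p = 0.026), and without Pol II replicate 2 it stood at 0.58 and was not called.

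The H2B genes were called at 12 of 17 (median 1.49). The highest, the pseudogene Hist3h2bb-ps, had 6 and 14 Pol II reads (2.66 and 3.46 RPKM) against 13 and 22 in input (0.404 and 0.619 RPKM), with a log2 ratio of 2.64 ± 0.49 (adjusted p = 0.00069). It was not called in the gene without its flanks (adjusted p = 0.13) or against the Sox6 libraries (0.19). Its window overlaps that of Hist3h2a. The lowest, Hist1h2bl, had 4 and 1 Pol II reads (1.88 and 0.262 RPKM) against 27 and 29 in input (0.890 and 0.866 RPKM), and its replicates fell on opposite sides of input (0.03 ± 0.76, adjusted p = 0.98). Hist1h2ba, the testis H2B that faces Hist1h2aa, had 2 and 0 Pol II reads against 5 and 14 in input (0.49 ± 1.07, adjusted p = 0.72). Without Pol II replicate 1 its ratio was -1.10, and without Pol II replicate 2 it was 2.07. With all libraries, then, neither gene of this testis pair was called.

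The H3 genes were called at 9 of 12 (median 1.57). Hist1h3e had 12 and 12 Pol II reads (4.25 and 2.37 RPKM) against 16 and 19 in input (0.397 and 0.427 RPKM), a ratio of 2.96 ± 0.48 (adjusted p = 0.00025). Hist2h3c1 had 17 and 26 Pol II reads (2.79 and 2.38 RPKM) against 34 and 30 (0.391 and 0.313 RPKM), a ratio of 2.89 ± 0.35 (adjusted p = 2.8e-05), and its window overlaps most of that of Hist2h2aa1. Hist1h3g was lowest, with 2 and 2 Pol II reads (0.850 and 0.473 RPKM) against 31 and 21 in input (0.922 and 0.566 RPKM), values that overlap (0.11 ± 0.61, adjusted p = 0.90). In RPKM each Pol II replicate lay below the input of the same number, so its ratio stood above 0 only through the 0.5 reads added.

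The H4 genes, which all encode the same protein or nearly so, were called at 9 of 11 (median 1.97). Hist1h4c had 18 and 61 Pol II reads (8.39 and 15.8 RPKM) against 22 and 41 in input (0.718 and 1.21 RPKM), a ratio of 3.63 ± 0.40 (adjusted p = 1.2e-05). Hist4h4 had 32 and 52 Pol II reads (15.9 and 14.3 RPKM) against 32 and 48 in input (1.11 and 1.51 RPKM), a ratio of 3.54 ± 0.29 (adjusted p = 1.3e-06). At both genes both Pol II libraries were above both input libraries, though the Pol II replicates of Hist1h4c differed widely. Hist1h4b was lowest, with 2 and 4 Pol II reads (0.872 and 0.971 RPKM) against 25 and 25 (0.763 and 0.691 RPKM), a ratio of 0.56 ± 0.54 (adjusted p = 0.40), although it was called in the gene without its flanks (2.69, adjusted p = 0.020).

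The small loci of chromosomes 11 and 6 held 4 genes. Hist3h2a had 12 and 40 Pol II reads (2.61 and 4.84 RPKM) against 55 and 70 in input (0.837 and 0.965 RPKM), a ratio of 2.01 ± 0.34 (adjusted p = 0.00037). Hist3h2ba, an H2B gene of the same locus, had 2 and 3 Pol II reads (0.802 and 0.670 RPKM) against 22 and 24 (0.618 and 0.611 RPKM), a difference smaller than its standard error (0.50 ± 0.57, adjusted p = 0.47). The windows of Hist3h2a and Hist3h2bb-ps also touch Trim17, a gene of another kind. All 10 members of the chromosome 3 cluster were called higher (median 2.85), and 32 of 50 tested members of Hist1 (median 1.57), beside 39.5% of all genes. The difference between the loci was not tested, and the 100 kb around the chromosome 3 cluster also stood above input, by log2 ratios of 1.06 and 0.95. The 100 kb around the chromosome 11 locus stood at 2.07 and 2.16, above the 1.42 and 1.96 of its own member windows.

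The sequence before the gene start is shown for the member of each class with the largest Pol II ratio among those whose RefSeq promoter matched, since Pol II read density was highest just before the start codon. RefSeq promoters (GRCm38.p6) were held for 61 members and each was placed in Build 37 by exact match. Each run is the 250 bases that end at the RefSeq gene start, 5′ to 3′ in the direction of transcription. Capitals mark the TATA box letters TATAAA, the CCAAT box letters CCAAT and the octamer letters ATTTGCAT, on either strand.
Hist1h1e, H1, chr13:23714428-23714677, minus strand: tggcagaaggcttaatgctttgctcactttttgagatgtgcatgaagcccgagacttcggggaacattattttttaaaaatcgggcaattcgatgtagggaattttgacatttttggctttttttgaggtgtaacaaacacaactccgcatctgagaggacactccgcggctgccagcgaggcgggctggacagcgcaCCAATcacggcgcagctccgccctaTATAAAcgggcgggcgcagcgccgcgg
Hist2h2aa1, H2A, chr3:96049170-96049419, plus strand: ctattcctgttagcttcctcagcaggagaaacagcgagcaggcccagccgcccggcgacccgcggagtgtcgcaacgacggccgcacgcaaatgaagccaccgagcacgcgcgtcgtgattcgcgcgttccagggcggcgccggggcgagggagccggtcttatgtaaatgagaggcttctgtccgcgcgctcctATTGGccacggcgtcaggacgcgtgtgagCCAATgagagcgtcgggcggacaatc
Hist1h2bk, H2B, chr13:22127440-22127689, plus strand: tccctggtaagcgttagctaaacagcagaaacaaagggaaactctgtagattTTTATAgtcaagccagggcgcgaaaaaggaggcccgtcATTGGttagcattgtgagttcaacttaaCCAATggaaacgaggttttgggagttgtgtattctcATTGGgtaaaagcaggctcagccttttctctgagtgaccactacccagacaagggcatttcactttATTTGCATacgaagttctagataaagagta
Hist1h3e, H3, chr13:23654255-23654504, minus strand: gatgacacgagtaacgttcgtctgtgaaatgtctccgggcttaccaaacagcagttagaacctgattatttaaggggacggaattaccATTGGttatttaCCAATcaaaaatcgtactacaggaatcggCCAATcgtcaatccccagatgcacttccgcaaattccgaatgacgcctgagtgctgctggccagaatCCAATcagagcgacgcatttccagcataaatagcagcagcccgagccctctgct
Hist1h4c, H4, chr13:23790328-23790577, minus strand: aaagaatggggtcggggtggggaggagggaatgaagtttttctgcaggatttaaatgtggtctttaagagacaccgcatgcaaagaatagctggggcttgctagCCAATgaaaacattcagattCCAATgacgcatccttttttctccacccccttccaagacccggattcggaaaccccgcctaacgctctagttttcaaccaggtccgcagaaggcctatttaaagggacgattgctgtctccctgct
In Hist1h1e a CCAAT box at 52 to 48 bases before the start was followed by TATAAA at 27 to 22. In Hist1h2bk the octamer lay at 30 to 23 bases before the start, downstream of 3 CCAAT boxes. Over the whole 300 bases, which add the first 50 of the transcript, CCAAT was found in 52 of the 61 promoters (85.2%), against 37.9% of 27025 RefSeq promoters. It was in all 49 promoters of H1, H2A, H2B and H3 genes and in 3 of 12 of H4 genes. TATAAA was found in 57.4% of the members and in 14.2% of all promoters. The octamer was found in 13 members, 7 of 17 H2A and 6 of 16 H2B, which is 21.3% against 1.75% of all promoters, and in no H1, H3 or H4 promoter. Promoters of genes that stand head to head can overlap almost wholly, as at Hist1h2ah and Hist1h2bk. A match on either strand then counts for both genes, so these are counts of members and not of separate sites. The letters ACAAAG and ACAATG, forms of the Sox motif, were in 21.3% and 6.56% of the members and in 18.7% and 12.8% of all promoters.

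Sox6 was compared with input by the same fit, with the same 2 input libraries, so the comparisons of Pol II and Sox6 are not independent. Of the 64 tested histone genes, 1 was called higher and 0 lower, against 5.78% and 1.59% of 21344 genes. The median log2 ratio was 0.38 over the members and 0.20 over all genes. At an unadjusted p under 0.05, 6 members were higher and 0 lower, and limma with voom weights called 1 and 0, as did the exact binomial test in each replicate. Within 500 bp of the gene start, 4 of 62 members were called (Hist4h4, Hist3h2bb-ps, Hist3h2a and Hist1h4j), against 1.90% of all genes. The start windows of Hist3h2bb-ps (6 and 4 Sox6 reads) and Hist3h2a (6 and 5) overlap for most of their length, so their calls share reads. Leaving out a Sox6 library leaves 1, which is then assumed to vary like the 2 input libraries. More members were then called, some of them lower, but the share of all genes called is not given here. Without Input replicate 1 the 1 call over gene windows was lost.

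The gene called was Hist4h4 (chr6:136752589-136752900). It had 15 and 13 Sox6 reads (3.83 and 6.75 RPKM) against 32 and 48 input reads (1.11 and 1.51 RPKM). Both Sox6 libraries were above both input libraries, and the log2 ratio was 2.01 ± 0.41 (limma adjusted p = 0.024). Without Input replicate 1 the ratio was 1.79 and the adjusted p 0.22. Its Pol II and input densities moved with it: Pol II stood at 15.9 and 14.3 RPKM, where the median histone gene had 1.93 and 1.65, and input at 1.11 and 1.51 RPKM, where the median was 0.566 and 0.573. The part of these in the Sox6 value was not tested. Pol II exceeded Sox6 in the same window by a log2 ratio of 1.54 (adjusted p = 0.00059).

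Hist4h4 was also the only histone gene with a Sox6 peak common to both replicates in the gene or within 20 kb, against 4.39% of all genes (976 of 22228). The count was 1 of 70 within 5 kb and within 50 kb as well, distances at which the share of all genes is not given here. The common peak covered 300 bases, chr6:136752722-136753021, of which 179 are coding, 52 lie between the start codon and the RefSeq gene start, and 69 precede it. It was called in replicate 1 (chr6:136752712-136752971) and in replicate 2 (chr6:136752772-136753011). In the 450 bp around its center the Sox6 libraries had 10 and 9 reads, against 9 and 15 in the far deeper input libraries, and the Pol II libraries had 24 and 32. The 250 bases before the RefSeq start are shown with the 69 that lie in the peak in capitals.
Hist4h4, H4, chr6:136752953-136753202, minus strand: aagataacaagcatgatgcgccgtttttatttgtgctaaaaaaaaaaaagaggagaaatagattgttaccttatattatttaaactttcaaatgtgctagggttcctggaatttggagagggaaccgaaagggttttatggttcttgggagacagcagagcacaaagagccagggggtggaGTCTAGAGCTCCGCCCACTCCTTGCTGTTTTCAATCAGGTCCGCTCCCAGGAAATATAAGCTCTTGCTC
Neither ACAAAG nor ACAATG occurred in the 300 bases of the peak on either strand. ACAAAG occurred once in the 250 bases, at 89 to 84 before the gene start and outside the peak. A further peak of Sox6 replicate 2 alone (chr13:22141912-22141971) lay 6367 bp beyond Hist1h2bj, within 20 kb of 5 genes (Hist1h2ah, Hist1h2bk, Hist1h4i, Hist1h2ag and Hist1h2bj). In 450 bp around it Sox6 had 2 and 6 reads, input had 7 and 8, and Pol II had 0 in both replicates.

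At those 5 genes the Sox6 ratios did not pass the test. Hist1h4i had 3 and 4 Sox6 reads (0.654 and 1.77 RPKM) against 16 and 20 in input (0.474 and 0.537 RPKM), with an adjusted p of 0.24. Hist1h2bj had 3 and 3 against 19 and 13 (adjusted p = 0.24), Hist1h2ag 1 and 4 against 15 and 11 (0.45), Hist1h2bk 1 and 0 against 8 and 16 (0.85), and Hist1h2ah 1 and 0 against 16 and 20 (0.46). Pol II was called above input at 4 of them, with log2 ratios of 2.45 at Hist1h2ag, 2.35 at Hist1h2bk, 2.27 at Hist1h2bj and 1.97 at Hist1h4i. In the exact binomial test Hist1h2bk (adjusted p = 0.38) and Hist1h4i (0.055) were not called, nor were Hist1h4i, Hist1h2ag and Hist1h2bj against the Sox6 libraries (0.38, 0.18 and 0.21). Without Input replicate 1, Hist1h2bk (0.097) and Hist1h4i (0.078) were not called, and without Input replicate 2, Hist1h2bj (0.051) was not. Hist1h2ah, with 6 and 1 Pol II reads against 16 and 20, was not called (0.93 ± 0.87, adjusted p = 0.38), but it was within 500 bp of the gene start (2.09, adjusted p = 0.029).

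The largest Sox6 ratios after Hist4h4 also rested on few reads. Hist3h2bb-ps had 6 and 4 Sox6 reads (1.37 and 1.86 RPKM) against 13 and 22 in input (1.77 ± 0.55, adjusted p = 0.079). Hist1h4j had 7 and 3 (1.64 and 1.43 RPKM) against 16 and 18 (1.69 ± 0.53, adjusted p = 0.081), and its Pol II reads were 4 and 4 (1.53 ± 0.58, adjusted p = 0.039). That Pol II call was lost against the Sox6 libraries, in the exact binomial test and without either input library. Hist1h2al, a lone gene at chr13:51298057-51298434, had 2 and 1 Sox6 reads against 5 and 9 (1.56 ± 0.79, adjusted p = 0.23) and 1 and 1 Pol II reads (1.22 ± 0.80, adjusted p = 0.21). Hist1h2ba had 3 and 1 Sox6 reads against 5 and 14 (1.50 ± 0.77, adjusted p = 0.24). Hist3h2ba had 5 and 5 Sox6 reads (1.37 ± 0.54, adjusted p = 0.14), and Hist3h2a had 7 and 7 (0.40 ± 0.44, adjusted p = 0.59). Over the gene with its flanks none of these but Hist4h4 passed the threshold, while Hist3h2bb-ps (adjusted p = 0.029), Hist1h4j (0.030) and Hist3h2a (0.022) passed it within 500 bp of the gene start.

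Peaks that the authors called give a count that rests on no model fitted here. The windows of 11 of the 70 histone genes held a Pol II peak in each replicate (at least 1 base shared with the window), against 12.5% of all genes and 6.59% of the 4963 genes of at most 4000 bp. They were Hist1h1c, Hist1h1e, Hist1h2be, Hist1h3e, Hist1h4c, Hist1h4h, Hist2h2aa1, Hist2h2bb, Hist2h3c1, Hist3h2a and Hist4h4. A peak in overlapping windows counts for each member, as at Hist1h2be and Hist1h1e and at Hist2h2aa1 and Hist2h3c1. All 11 were among the 45 called by the read counts, which rest on the same libraries as the peaks. The peaks of the replicates overlapped each other at 7 of them, and at Hist1h1c, Hist2h2aa1, Hist2h3c1 and Hist3h2a they lay at different places. The longer list of replicate 2, with 17488 peaks against 11299 in replicate 1, reached 20 members, against 20.6% of all genes. At Hist4h4 the peaks were wide, 481 and 621 bp, and covered the Sox6 peak in part. At Hist1h1c the peak of replicate 1 was 301 bp and those of replicate 2 were 61 and 781 bp.

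The histone genes of chromosome 13 formed 4 clusters of 2 or more genes no more than 100 kb apart, with 55 members, and Hist1h2al stood alone. Over the 132 kb of member windows in these clusters, the Pol II libraries held 1.58 and 1.63 RPKM and the input libraries 0.553 and 0.553, which is 2.87-fold and 2.95-fold. The Sox6 libraries held 0.583 and 0.693 RPKM. In the 237 kb of the clusters outside those windows, Pol II held 0.340 and 0.330 RPKM, below the 0.470 and 0.450 of input. In the 100 kb on each side of the clusters Pol II held 0.227 and 0.251 RPKM and input 0.492 and 0.485. Over the 4 clusters as a whole, Pol II density was higher in the gene windows than around them in both replicates. A permutation test of 2 against 2 libraries cannot pass the threshold, so none was made.

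**Figure D3:**
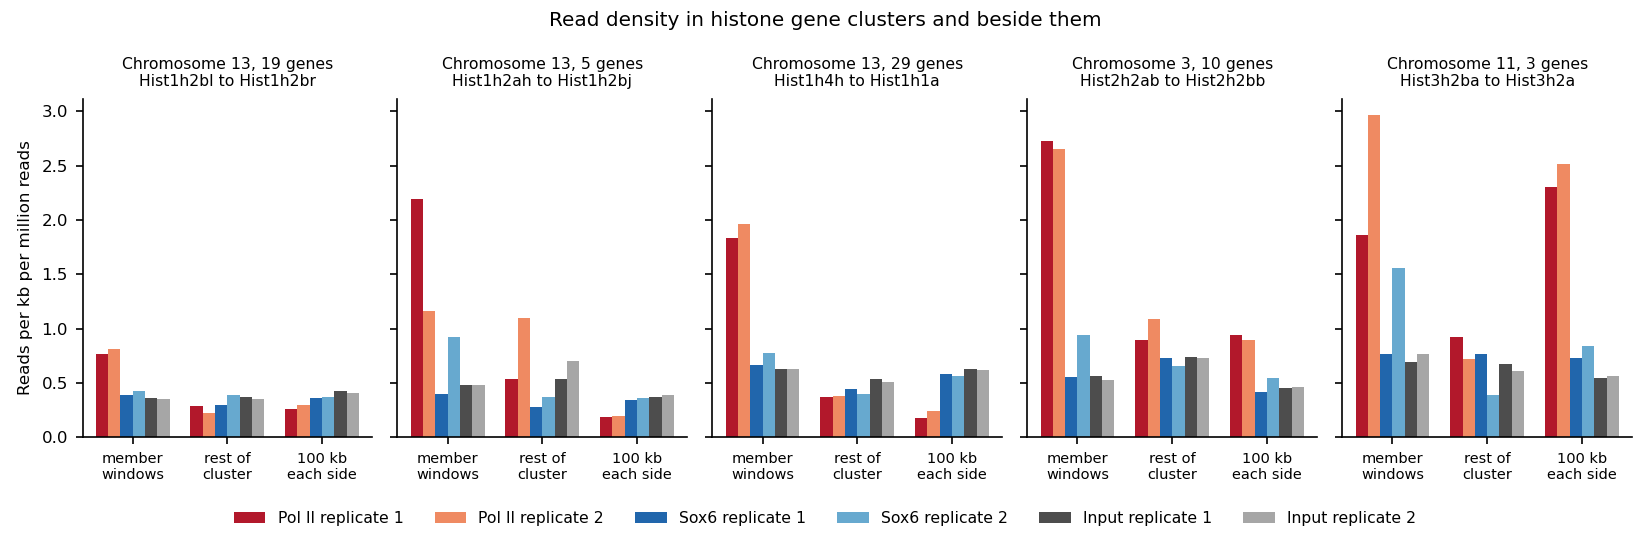
RPKM (bars, vertical axis from 0) for each of the 6 libraries in the member windows, in the rest of the cluster and in 100 kb on each side, for the 5 histone gene clusters that have sequence between their windows. The Pol II bars are tallest in the member windows of the 3 chromosome 13 clusters and the chromosome 3 cluster; beside the chromosome 11 cluster they stay at 2.30 and 2.52.

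The clusters were not alike. In the largest, from Hist1h4h to Hist1h1a (chr13:23622419-23856783 with the flanks, 29 members), the member windows held 1.83 and 1.97 RPKM in Pol II and 0.628 and 0.624 in input. In the one from Hist1h2bl to Hist1h2br (chr13:21807132-21929899, 19 members), Pol II held 0.769 and 0.809 and input 0.359 and 0.352. This cluster contains the 6 genes with almost no unique positions. In the cluster of 5 members from Hist1h2ah to Hist1h2bj, the Pol II replicates were at 2.19 and 1.16 RPKM in the windows and at 0.535 and 1.09 in the rest, so replicate 2 was nearly level. In the testis pair Hist1h2ba and Hist1h2aa they were at 0.624 and 0 RPKM, and at 0.296 and 0.272 in the 100 kb on each side. In the chromosome 3 cluster of 10 members Pol II held 2.73 and 2.65 RPKM and input 0.567 and 0.531. Unlike over the chromosome 13 clusters as a whole, Pol II was above input around these windows too, at 0.894 and 1.09 RPKM against 0.739 and 0.734 in the rest of the cluster, and at 0.939 and 0.896 against 0.451 and 0.464 in the 100 kb on each side.

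Genes that work with the histone genes, or respond to the cell cycle, were counted from lists in the same fit, where 39.5% of all genes were called higher and 23.0% lower. Of 10 tested histone genes listed as replication-independent, 6 were called higher and 0 lower in limma (median log2 ratio 1.46), led by H2afx (3.83) and H3f3b (3.52), a gene of H3.3. Whether each gene of this list, H2afx included, is independent of replication was not tested. Within 500 bp of its gene start H3f3b was at -0.70 and was not called (adjusted p = 0.60). Of 11 factors of histone gene transcription and 3′ end processing, 6 were called higher and 0 lower (median 0.80), led by Lsm10 (1.57), part of the U7 particle that cuts histone mRNA, and Slbp (1.38), which binds the stem-loop. Lsm10 was not called within 500 bp of its gene start (1.12, adjusted p = 0.19). Of 8 genes listed as histone chaperones, 4 were called higher and 1 lower (median 0.40), led by Daxx (1.60) and Chaf1a (0.61). The one called lower was Hat1 (-0.38), a histone acetyltransferase and not a chaperone. Of 17 genes of DNA replication and nucleotide synthesis, 6 were called higher and 5 lower (median 0.34), led by Mcm7 (2.54) and Tk1 (1.88). Of 6 mitosis genes, 0 were called higher and 4 lower in limma (median -0.92), with Ccnb1 at 0.45 and Plk1 at 0.22. Of 6 genes of cell cycle exit, 4 were called higher and 0 lower (median 1.49), led by Cdkn1a (5.45), which encodes the cell cycle inhibitor p21, and Cdkn1c (2.25). Each count of 0 in these lists was also 0 at an unadjusted p under 0.05, with voom weights and in the exact binomial test. Within 500 bp of the gene start, however, where 46.4% of all genes were called higher, 2 of 5 mitosis genes were called higher, Ccnb1 (1.83, adjusted p = 0.0018) and Top2a (1.30, adjusted p = 0.028), with a median of 0.64. There 13 of 17 DNA replication genes were called higher (median 1.90), as were 5 of 10 transcription and 3′ end factors (1.97) and 5 of 8 genes of the chaperone list (1.74). So were 5 of 6 genes of cell cycle exit (2.40) and 4 of 9 histone genes listed as replication-independent (1.21). The 4 mitosis genes called lower became 1 in the binomial test and the 5 of DNA replication also 1, and the lower call of Hat1 was lost there and with voom weights. Differences between the lists were not tested.

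**Figure D4:**
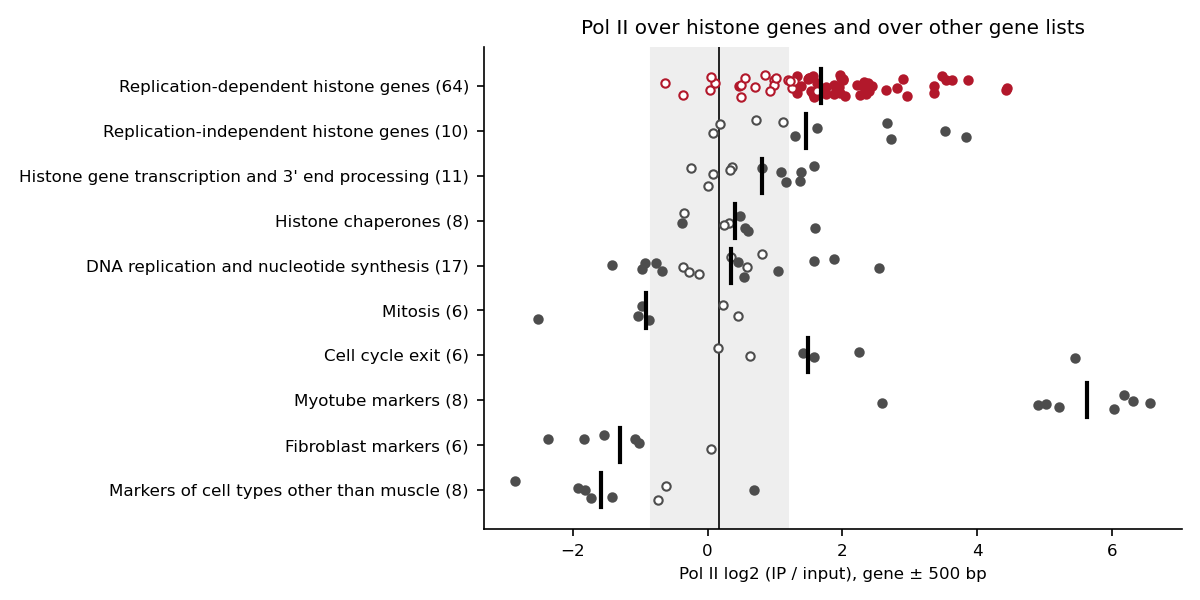
Pol II log2 ratio to input over the gene with 500 bp on each side (horizontal axis) for each tested gene of 10 lists (rows, number of genes in brackets); filled points have an adjusted p under 0.05, thick bars are list medians, the thin line is the median of all genes (0.17) and the gray band spans their middle quartiles. The histone genes have a median of 1.69, between the mitosis genes at -0.92 and the myotube markers at 5.63.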

How the data were processed

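ChIP-seq libraries of Sox6, Pol II and input DNA (2 each) were used. The authors aligned single-end reads with Bowtie 0.12.5 to NCBI Build 37 (mm9) after fixing with DSG and formaldehyde and 18 cycles of PCR. They deposited the position of each uniquely mapped read and peak lists that SISSRs called in each library against the input of its experiment, with a list of Sox6 peaks common to both replicates. The deposited Pol II peak lists also hold an unnamed score column, which was not used. Genes came from an annotation of Build 37. From the positions, 5′ ends of reads were counted in each gene with 500 bp on each side, in 22228 genes, and log2 of reads per 1000000 library reads (0.5 reads added) were fitted with limma 3.58.1 with a trend in R 4.3.3, for genes with at least 10 reads over the 4 libraries, with the Benjamini-Hochberg adjustment over all genes. RPKM is reads per kb of window per 1000000 library reads. Other steps used Python 3.11.15, numpy 2.4.6, pandas 2.3.3, scipy 1.17.1 and numba 0.67.0. Uniqueness of each 39-base stretch was computed on the genome by exact match, and RefSeq promoters (GRCm38.p6) were placed in Build 37 by exact match.

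The fit was tested on simulated data. For Pol II it recovered 39 of 50 genes raised 4-fold and 49 of 50 raised 8-fold, but 28 of 49 lowered 4-fold, over 21206 genes. The changed genes were drawn from all genes with at least 10 reads, with a spread set in advance. Histone gene windows had medians of 5 and 8 Pol II reads, so these shares need not hold for them. Libraries held 1468604 to 24249850 reads, and the low counts at single histone genes set the precision. Intervals and floors cover counting error only. Members follow from their symbols, but this gene family and the other lists were picked for study with earlier results of these data known. Named with values were the 10 members with the largest Pol II ratio among those called higher, the 5 with the largest Sox6 ratio, members within 20 kb of a Sox6 peak, the lowest Pol II ratio of each class, all of Hist3 and Hist4, and the 2 largest Pol II ratios of each other list. Hist1h1t, Hist1h1a, Hist1h1d, Hist1h2be, Col1a2 and Top2a, and members named for lacking a stem-loop or holding a peak, were named after their values were seen. Alternatives were another window, count floor, scaling, model, test, comparator and leaving out each library.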

Additional observations from a re-analysis of the deposited data

How the results depend on the processing

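The median Pol II log2 ratio of the members, 1.69, was 2.35 in the gene without its flanks, 2.31 around the gene start and 3.18 when scaled to bins outside genes and peaks. The number called higher, 45, became 24 against the Sox6 libraries and 25 in the exact binomial test, and ranged from 31 to 55 when 1 library was left out. The number called lower then ranged from 0 to 2. A lone library is assumed to vary like the remaining pair, so calls made without it are less certain. For Sox6, the 1 member called higher became 4 around the gene start and 4 with 2 reads added to each count, and ranged from 0 to 24 when 1 library was left out, while the number lower ranged from 0 to 3. The Sox6 median, 0.38, became 0.81 around the gene start, where that of all genes was 0.63, and 0.91 with 2 reads added. Reads added to every count raise a ratio where a Sox6 or Pol II library has fewer reads than input, most at low counts. Pol II peaks of both replicates were in 11 members, 6 without the flanks, 20 with a peak in either replicate and 11 to 20 when 1 replicate was left out. With the peak list of Sox6 replicate 2 in place of the common peaks, 6 members had a peak within 20 kb, Hist4h4 among them. The share of all genes is not given here for this list or for a Pol II peak in either replicate. The Pol II ratio over the chromosome 13 clusters, 1.54, was also 1.54 with repeated positions counted once. Of the values of named members, 554 kept their direction and side of the threshold, 38 gained a call, 15 lost one and 52 changed sign, 13 for Pol II and 39 for Sox6. The gene was called with neither setting in 50 of the 52, and in 2 it was called with one of them: Hist1h4j for Pol II against the Sox6 libraries, and Hist1h2bl without Pol II replicate 1. Around the gene start, the Pol II values that reversed were 0.11 at Hist1h2aa. With 2 reads added, the Pol II values that reversed were 0.72 at Hist1h2aa. When scaled to bins, the Pol II values that reversed were 0.87 at Hist1h2aa. With voom weights, the Pol II values that reversed were -0.12 at Hist1h2bl. Against the Sox6 libraries, the Pol II values that reversed were -0.16 at Hist1h4j and -0.87 at Hist3h2ba. With 1 library left out, Pol II values that reversed ranged from -1.10 to 2.07 at Hist1h2ba, -0.55 to 2.41 at Hist1h2ah, -1.18 to 1.24 at Hist1h2bl, -0.32 to 0.53 at Hist1h3g and -1.85 to 0.58 at Hist1h2aa. In the gene without its flanks, the Sox6 values that reversed were 0.55 at Hist1h1e, 1.43 at Hist2h2ab, 1.23 at Hist1h1c, -0.076 at Hist1h4i, 1.05 at Hist1h1b and -0.50 at Hist3h2a. Around the gene start, the Sox6 values that reversed were -0.17 at Hist2h2aa1, -0.22 at Hist2h2ac, 0.11 at Hist2h2ab, 0.30 at Hist1h1c, 0.014 at Hist1h3e, -0.076 at Hist2h3c1, 0.48 at Hist1h2ah, 0.68 at Hist1h2bk, 0.67 at Hist1h1b and 0.96 at Hist1h2bl. With 2 reads added, the Sox6 values that reversed were 0.61 at Hist1h1e, 0.98 at Hist2h2ab, 0.41 at Hist1h1c, 0.77 at Hist1h3e, 0.44 at Hist1h2ah, 1.01 at Hist1h2bk, 0.076 at Hist1h1b, 0.35 at Hist1h2bl and 0.26 at Hist1h3g. When scaled to bins, the Sox6 values that reversed were 0.036 at Hist1h1c. With voom weights, the Sox6 values that reversed were 0.15 at Hist2h2ab. With 1 library left out, Sox6 values that reversed ranged from -1.22 to 1.22 at Hist2h2ac, -0.56 to 0.46 at Hist1h1c, -0.63 to 0.39 at Hist1h3e, -1.80 to 0.88 at Hist1h1e, -1.31 to 1.13 at Hist2h2ab, -0.26 to 1.86 at Hist2h3c1, -0.20 to 2.41 at Hist1h2ag, -0.40 to 1.11 at Hist1h4b and -0.11 to 0.91 at Hist3h2a. The changes with 2 reads added come from the added reads. The cause of the other changes was not tested.

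With the replicate number as a block, 41 members were called higher for Pol II and 2 for Sox6 (Hist4h4 and Hist3h2bb-ps, adjusted p = 0.039), and the Pol II call of Hist1h4j was lost (adjusted p = 0.060). The share of all genes called with the block is not given here. The study used the input of each experiment for its peaks, but no source used here says which number that is, and deviations of same-numbered libraries from their group means correlated with those of input at -0.07 for Pol II and 0.03 for Sox6 across genes, which are not independent replicates. Depth limits single genes, since many rest on fewer than 10 Pol II reads.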
